A study of Mus musculus with 46 samples.

Results

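The 7 cyclin-dependent kinase (CDK) inhibitor genes of the mouse (Cdkn1a, Cdkn1b, Cdkn1c, Cdkn2a, Cdkn2b, Cdkn2c and Cdkn2d) and the p53 gene Trp53 with its antagonist Mdm2 were followed through sorted thymocytes and splenic T cells of wild-type and LMO2 transgenic mice. They were chosen by gene symbol, and all 9 were found among the 19521 genes of the table. LMO2 links DNA-binding transcription factors in blood progenitors and is an oncogene of T-cell leukaemia. Cdkn1a fell in transgenic DN3 cells from a mean of 61.4 ± 7.39 to 1.79 ± 1.36 CPM (counts scaled to library size, SD, n = 3 each). Cdkn2a was at or near 0 in every wild-type library and rose in transgenic DN3, DN, CD4SP and CD8SP cells.

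CDK inhibitors stop cells from entering or passing through division. The CIP/KIP proteins (p21 from Cdkn1a, p27 from Cdkn1b and p57 from Cdkn1c) bind many cyclin-CDK complexes, whereas the INK4 proteins (p16 from Cdkn2a, p15 from Cdkn2b, p18 from Cdkn2c and p19Ink4d from Cdkn2d) bind CDK4 and CDK6. The Cdkn2a locus also encodes Arf, which restrains Mdm2, the ubiquitin ligase that marks p53 for degradation. Cdkn1a and Mdm2 are both transcribed under p53. In the thymus, DN3 cells pause while they rearrange the T-cell receptor beta chain, then divide, and become mostly resting double-positive cells.

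The cells came from C57BL/6 mice, and the genotype was labelled wild type (WT) or hCD2-LMO2 knock-in (TG, called transgenic in the title of the series), which places LMO2 under human CD2 elements active in T cells. From the thymus came cells with neither coreceptor (DN, double-negative) and the subsets DN1 and DN3 within them, cells with both CD4 and CD8 (DP, double-positive), and mature cells with only CD4 (CD4SP) or only CD8 (CD8SP). Splenic CD4 and CD8 T cells came from TG mice. Each of the 14 groups had 3 libraries except WT DN1 with 1, which makes 40 libraries of 17211426 to 28842773 counted reads. The labels used here give no ages and do not say whether the libraries of a group came from separate mice, so p-values measure the spread between libraries, which may be technical.

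Lmo2 checked the labels. It was between 0.122 and 4.42 CPM in WT libraries other than DN1, 30.7 CPM in the WT DN1 library, and between 16.5 and 87.1 CPM in the TG libraries with 1 exception. That exception, the library labelled TG DP replicate 3, had 0.397 CPM, within the WT range, so the DP tests of the members are given with and without it. Whether reads of the transgene were counted under the mouse symbol is unknown from the sources used here. Sort markers set other libraries apart. TG CD4SP replicate 1 had 191 CPM of Cd4, against 2151 and 1299.8 CPM in the other TG CD4SP libraries. TG CD4SP replicate 2 had 6438 CPM of Rag1 and 3069.6 CPM of Cd8a, both within the range of DP libraries. TG CD4SP replicate 3 had 2274 CPM of Rag1 and 825 CPM of Cd8a. WT CD4SP libraries had 48.7 to 292 CPM of Rag1 and 43.5 to 146 CPM of Cd8a. TG CD8SP replicate 3 had 6099 CPM of Rag1 and 1412 CPM of Cd4. WT CD8SP replicate 3 had 2983 CPM of Rag1 and 843 CPM of Cd4, and the other CD8SP libraries had 30.7 to 160 CPM of Cd4. In TG splenic CD8 replicate 1 the summed T-lineage markers (Cd3e, Cd3g, Cd3d, Lck) were 521 CPM and the summed B-cell markers 3478 CPM. An N closes the names of 12 of the 40 count columns, and the labels leave it unexplained. In total DN and in CD4SP, TG replicates 1 and 3 carry it and no WT library does. Genotype and the suffix are thus partly confounded at these stages. In bulk samples, fewer cells of a type and less RNA per cell cannot be told apart.

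**Figure D1:**
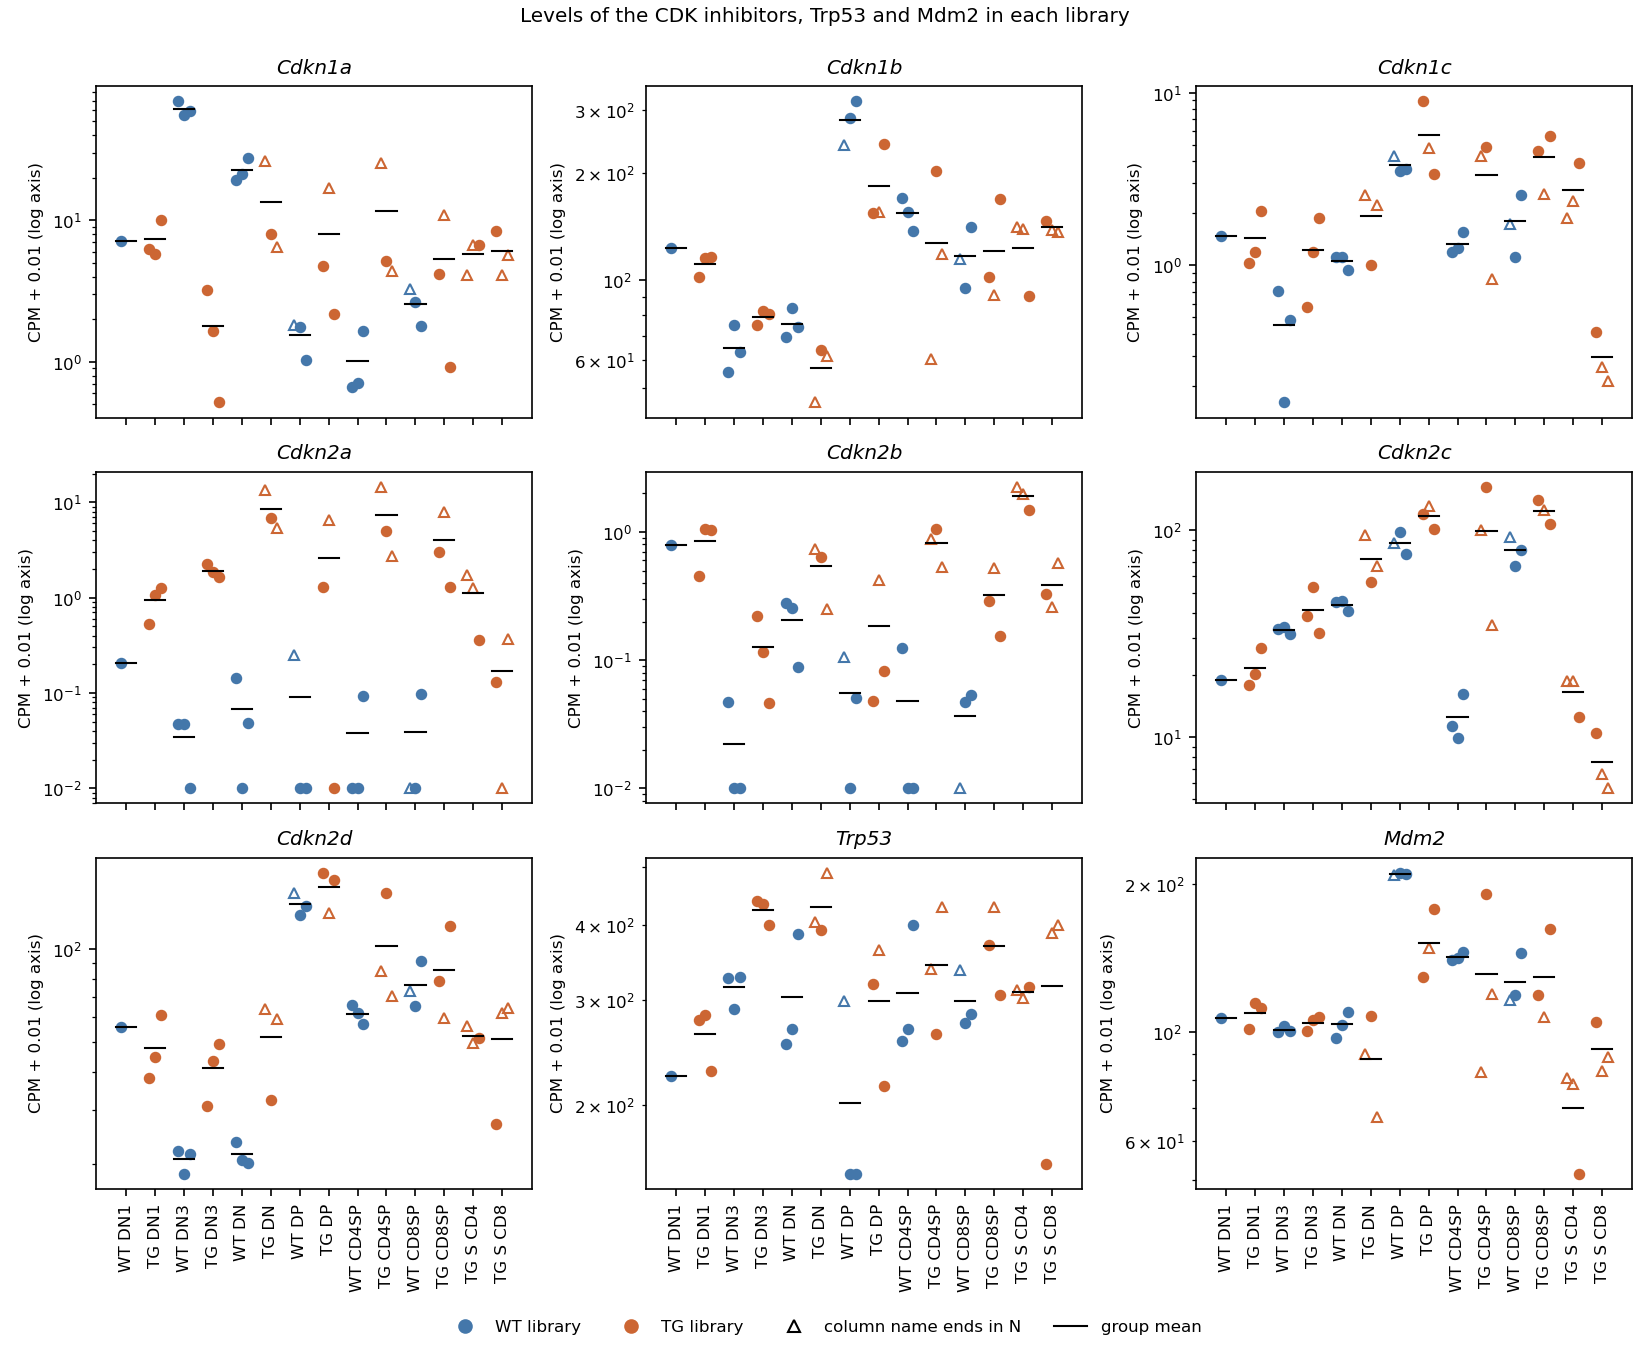
Level of each gene in each library, as CPM plus 0.01 on a log axis, by group. Blue marks are WT and orange marks TG libraries, open triangles are libraries whose column name ends in N, and black lines are group means. WT DN3 stands highest for Cdkn1a (55.03 to 69.5 CPM), and WT libraries of Cdkn2a do not pass 0.2395 CPM.

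Between genes, levels were compared per transcript length, as the deposited FPKM (fragments scaled by transcript length and library size). Cdkn1b or Cdkn2d was the highest inhibitor in 13 of the 14 groups, and Cdkn1a in WT DN3 (37.5 FPKM). Cdkn1b led in WT DP (120.2 FPKM) and WT CD4SP (69.8 FPKM), and Cdkn2d led in WT CD8SP (67.7 FPKM) and in the TG thymic groups other than DN1. The 7 inhibitors summed to 291 FPKM in WT DP and 282 FPKM in TG DP, and to between 101 and 219 FPKM in the other groups. The INK4 genes made up 38.45% of that sum in WT DN3 and 63.63% in TG DN3. Their share was 47.23% in WT and 70.88% in TG CD4SP, and 67.6% in WT and 71.98% in TG CD8SP. Trp53 lay between 116 FPKM in WT DP and 260.1 FPKM in TG DN, and Mdm2 between 21.2 FPKM in TG splenic CD4 and 66.4 FPKM in WT DP.

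**Figure D2:**
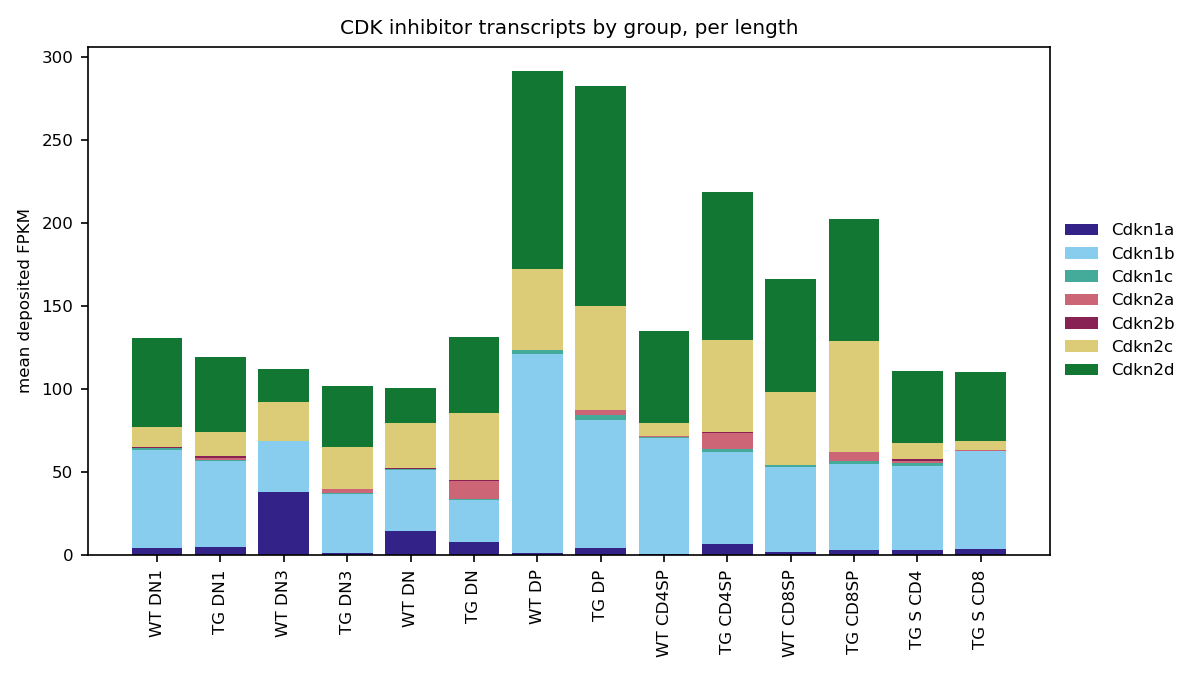
Mean deposited FPKM of the 7 CDK inhibitor genes, stacked for each group, with bars from 0. The stack is tallest in WT DP (291 FPKM) and TG DP (282 FPKM), and the Cdkn1a segment is largest in WT DN3 (37.5 FPKM).

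Genotype was compared at each thymic stage with edgeR's quasi-likelihood test, and a gene was called at a Benjamini-Hochberg adjusted p under 0.05 over all genes tested. In DN3, 8 members passed the filter on low counts and 4 were called: Cdkn2a, Cdkn2d and Trp53 rose and Cdkn1a fell, where 45.7% of all genes were called (23.4% higher and 22.2% lower). The share of members called there is near that background. In DN, 2 of 8 were called, both higher (Cdkn2a and Cdkn2d), where 12.4% of all genes were called (7.47% higher and 4.89% lower). In CD4SP, 4 of 9 were called, all higher (Cdkn1a, Cdkn2a, Cdkn2b and Cdkn2c), where 25.9% of all genes were called (15% higher and 11% lower). In CD8SP, Cdkn2a alone of 8 was called, where 4.45% of all genes were called (2.09% higher and 2.36% lower). Cdkn2a in these 4 comparisons, and Cdkn2b in CD4SP, passed the filter through TG libraries, so that once tested they could only be high in TG, and the shares above support nothing by themselves. The numbers of genes called over the whole table moved with single libraries, least in DN3. Leaving out 1 library gave 179 (without WT DN replicate 2) to 3146 genes (without TG DN replicate 2) in DN, 38 (without WT CD4SP replicate 1) to 4329 genes (without TG CD4SP replicate 2) in CD4SP, 9 (without WT CD8SP replicate 2) to 724 genes (without TG CD8SP replicate 3) in CD8SP and 3802 (without WT DN3 replicate 3) to 6185 genes (without WT DN3 replicate 2) in DN3.

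In DP, 0 of 7 members and 0% of all 11649 genes were called by edgeR. At an unadjusted p under 0.05, 4 members and 2450 genes passed there, and DESeq2 called 1 member (Cdkn1a, adjusted p = 0.0184) and 618 genes. Without TG DP replicate 3, the library with Lmo2 at the WT level, edgeR called 3 members (Cdkn1a, Cdkn1b and Cdkn2a) and 906 genes. In DN1, edgeR called 0 of 9 members and 0% of all genes. At an unadjusted p under 0.05, 0 members and 157 genes passed in DN1, and DESeq2 called 0 members and 3 genes. Because WT DN1 has 1 library, the DN1 test took its spread from a fit of all 40 libraries, which assumes that the lone library varies like the other groups.

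**Figure D3:**
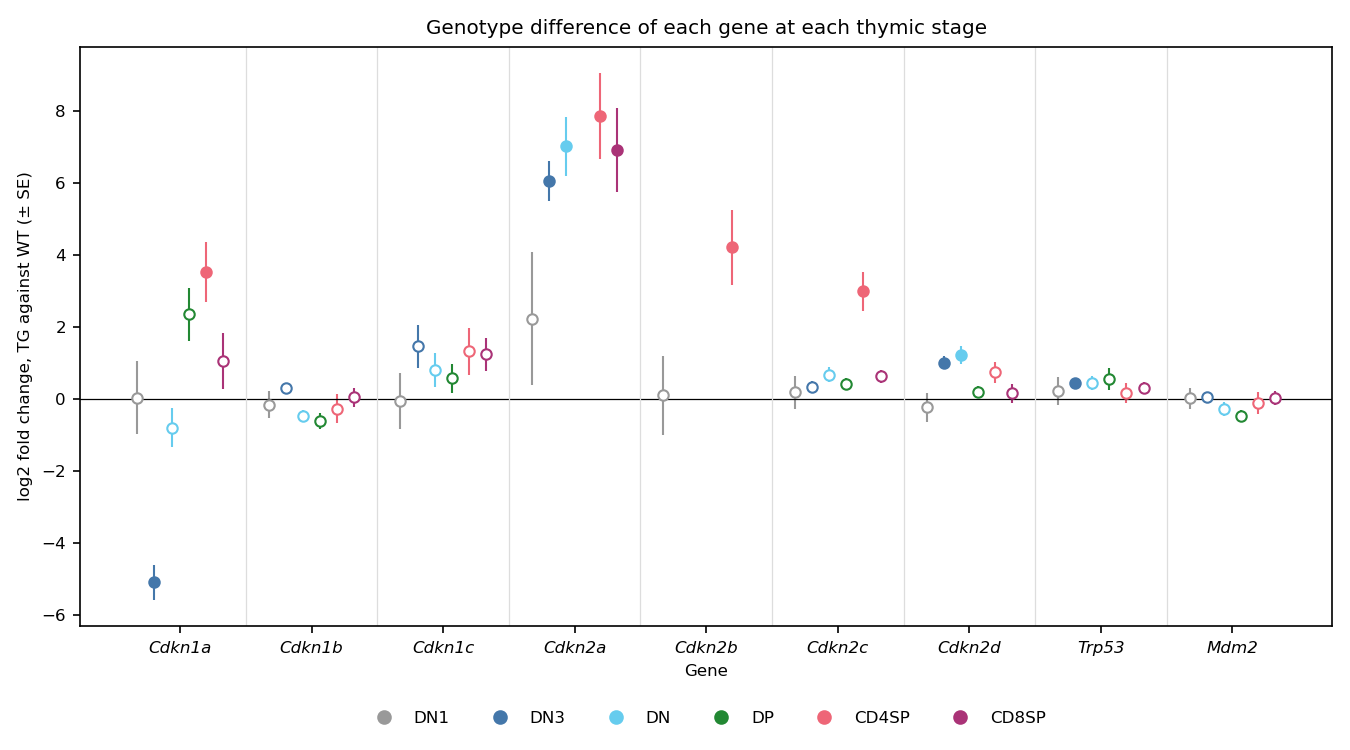
Log2 fold change of TG against WT for each gene, coloured by thymic stage, with standard errors from edgeR. Filled points were called at an adjusted p under 0.05, and a gene that did not pass the filter at a stage has no point. Cdkn1a lies at -5.08 in DN3 and at 3.52 in CD4SP, and the filled Cdkn2a points lie between 6.06 and 7.85.

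Cdkn1a encodes p21, the best known target of p53. RefSeq (GRCm38.p6) lists a pair of transcript starts for it, 2790 bases apart on chromosome 17. The 250 bases before each start are shown because Cdkn1a had the largest called fall among the members in the genotype comparisons. The p53 response element, a pair of half-sites with a gap of up to 13 bases, was searched on both strands. It occurred in 0.0639% of 32851 RefSeq windows of this length. The window before the upstream Cdkn1a start held a match, with the half-sites in capitals, 12 bases apart and ending 41 bases before the start. No mismatch was allowed in a half-site, so an element that departs from the pattern would stay unmarked. In the window before the downstream start, capitals mark CANNTG, the E-box core bound by partners of LMO2, which 66.2% of windows held and which did not occur in the other window. The sequence GATA, also searched but not marked, occurred 3 times in the upstream window and 0 times in the downstream one. Of all windows, 53.6% held GATA. A match is a description, and the counts cannot tell transcripts of the starts apart.
Cdkn1a upstream start, chr17:29090729-29090978, plus strand: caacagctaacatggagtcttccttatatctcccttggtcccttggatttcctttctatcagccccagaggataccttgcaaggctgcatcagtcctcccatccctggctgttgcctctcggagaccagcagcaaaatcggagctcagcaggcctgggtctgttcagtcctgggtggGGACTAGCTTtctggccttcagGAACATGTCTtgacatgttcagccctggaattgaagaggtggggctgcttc
Cdkn1a downstream start, chr17:29093519-29093768, plus strand: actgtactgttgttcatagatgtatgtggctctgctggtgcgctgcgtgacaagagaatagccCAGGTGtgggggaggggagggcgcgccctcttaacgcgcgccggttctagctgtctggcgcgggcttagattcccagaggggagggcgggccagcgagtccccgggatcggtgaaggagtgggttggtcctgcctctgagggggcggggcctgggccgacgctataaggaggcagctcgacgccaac

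In WT DN3 the libraries had 69.5, 55.03 and 59.6 CPM of Cdkn1a, and in TG DN3 they had 3.21, 1.65 and 0.506 CPM. Every TG library was below every WT library, and Cdkn1a fell by 5.08 ± 0.49 (SE) on the log2 scale (edgeR adjusted p = 0.000276). The call held without any one library (-5.80 to -4.64). Summed thymic stroma markers were 51.7 to 58.3 CPM in WT DN3 and 10.5 to 22.8 CPM in TG DN3, and their part in the result was not tested. Total DN cells had 19.1, 21.3 and 27.7 CPM in WT and 26.1, 7.97 and 6.44 CPM in TG. The genotypes overlapped through TG replicate 1, and the log2 difference of -0.79 ± 0.54 was not called (95% interval -2.28 to 0.70, adjusted p = 0.351). Without that library it was -1.70 (adjusted p = 0.00473).

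At the DP and single-positive stages Cdkn1a was low in WT cells. WT DP had 1.82, 1.75 and 1.01 CPM, and TG DP had 4.72, 16.9 and 2.16 CPM, the last in the library whose Lmo2 was at the WT level. All TG libraries lay above all WT libraries, but the log2 difference of 2.36 ± 0.73 was not called (adjusted p = 0.213). Without that library it was 2.80 and called (adjusted p = 0.0411). In CD4SP, WT had 0.6498, 0.7004 and 1.64 CPM and TG had 25.2, 5.12 and 4.39 CPM, a rise of 3.52 ± 0.83 on the log2 scale (adjusted p = 0.0253). The highest of these was the replicate with low Cd4. Without it the rise was 2.26 (adjusted p = 0.0423), and the call was lost without any one of the WT libraries (3.26 to 4.06). A term for the suffix N also ended it (2.37, adjusted p = 0.1101).

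CD8SP cells had 3.27, 2.62 and 1.78 CPM of Cdkn1a in WT and 4.15, 10.97 and 0.906 CPM in TG, which overlapped (log2 difference 1.07, 95% interval -1.08 to 3.21). DN1 had 7.07 CPM in WT and 6.26, 5.74 and 9.98 CPM in TG. The genotype difference in DP minus that in DN3 was 7.47 ± 1.06 on the log2 scale (interaction term, adjusted p = 0.00256). In that interaction 2 of 8 members were called, where 10.2% of all genes were called (4.88% higher and 5.29% lower). Leaving out any one library kept the call of Cdkn1a, and without TG DP replicate 3 the term was 7.92. In the order of the 14 groups, WT DN3 was highest and did not overlap the next group, WT DN, and no other neighbours were apart. Other TG groups had mean Cdkn1a levels of 6.05 ± 2.16 CPM in splenic CD8 and 5.798 ± 1.47 CPM in splenic CD4.

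Cdkn1b (p27) holds resting lymphocytes out of division. Its highest group was WT DP with 240.0, 286 and 318 CPM, followed by TG DP with 155, 155 and 241 CPM, whose top library, replicate 3, overlapped WT. The log2 difference in DP was -0.61 ± 0.23 (adjusted p = 0.217), and -0.87 (adjusted p = 0.0436) without that library. In DN3 it was 0.32 ± 0.13 (adjusted p = 0.0668). In total DN all TG libraries (45.5, 63.6 and 61.2 CPM) were below all WT libraries (69.3, 83.4 and 74.1 CPM), which was not called either (-0.46 ± 0.16, adjusted p = 0.101). The interaction of DP against DN3 was called at -0.91 ± 0.26 (adjusted p = 0.0458). It was called in 3 of the 12 fits that left out 1 library, among them the one without TG DP replicate 3 (-1.15), and lost in the other 9 (-0.95 to -0.79). In the order of groups only TG DN1 and TG DN3 were neighbours apart, with all DN3 and DN groups below that gap. Cdkn1b averaged, in the remaining WT groups, 154 ± 15.97 CPM in CD4SP, 123 CPM in DN1, 117 ± 22.9 CPM in CD8SP and 64.5 ± 9.999 CPM in DN3. Mean Cdkn1b levels in TG groups not yet given were 141 ± 5.47 CPM in splenic CD8, 127 ± 71.9 CPM in CD4SP, 124 ± 28.8 CPM in splenic CD4, 121 ± 42.5 CPM in CD8SP, 111 ± 7.86 CPM in DN1 and 79.2 ± 3.700 CPM in DN3.

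Cdkn1c (p57), an imprinted inhibitor, was low in all groups, from a mean of 0.284 CPM in TG splenic CD8 to 5.69 CPM in TG DP. No genotype comparison called it. In CD8SP, WT had 1.73, 1.11 and 2.56 CPM and TG had 4.601, 2.58 and 5.58 CPM, without overlap (log2 difference 1.24 ± 0.47, adjusted p = 0.2004). In DN3 the ranges overlapped (0.701, 0.151 and 0.4703 CPM in WT, 0.564, 1.19 and 1.88 CPM in TG), with a difference of 1.47 ± 0.59 (adjusted p = 0.0698). In CD4SP the difference was 1.32 ± 0.66 (adjusted p = 0.174). In DP it was 0.58 ± 0.40 (adjusted p = 0.4000), and 0.84 (adjusted p = 0.154) without TG DP replicate 3. In the other WT groups the mean of Cdkn1c was 3.81 ± 0.439 CPM in DP, 1.48 CPM in DN1, 1.33 ± 0.197 CPM in CD4SP and 1.05 ± 0.1003 CPM in DN. Other TG groups had mean Cdkn1c levels of 5.69 ± 2.88 CPM in DP, 3.32 ± 2.18 CPM in CD4SP, 2.704 ± 1.08 CPM in splenic CD4, 1.92 ± 0.811 CPM in DN and 1.42 ± 0.553 CPM in DN1. Neighbours in its order of levels did not overlap between WT DN and WT DN3.

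Cdkn2a encodes p16 and Arf from different first exons. RefSeq gives a pair of starts, 12427 bases apart on chromosome 4, and the 250 bases before each are shown because its transcript was almost absent from WT cells. The window before the upstream (Arf) start has 78.4% G or C and 40 CG pairs, and the one before the downstream (p16) start 60.0% and 7. Neither the p53 element nor CANNTG was found in these windows, so they carry no capitals, and GATA did not occur in them. Such absence says nothing of the factors themselves. The table has 1 entry for both transcripts, so p16 and Arf cannot be told apart here.
Cdkn2a upstream start, chr4:89294620-89294869, minus strand: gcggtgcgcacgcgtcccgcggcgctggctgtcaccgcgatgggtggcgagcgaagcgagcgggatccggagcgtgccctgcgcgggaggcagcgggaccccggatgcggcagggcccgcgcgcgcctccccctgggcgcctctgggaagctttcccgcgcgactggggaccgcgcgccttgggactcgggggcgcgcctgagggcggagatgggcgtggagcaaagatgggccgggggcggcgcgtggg
Cdkn2a downstream start, chr4:89282193-89282442, minus strand: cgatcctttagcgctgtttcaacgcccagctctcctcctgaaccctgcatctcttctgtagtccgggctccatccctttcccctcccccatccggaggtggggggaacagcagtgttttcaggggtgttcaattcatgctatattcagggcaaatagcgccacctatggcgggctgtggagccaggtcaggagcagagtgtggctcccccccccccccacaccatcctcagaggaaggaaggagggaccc

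Of the 16 WT libraries, 8 held no Cdkn2a read, and the highest had 0.2395 CPM. Above that level lay 21 of the 24 TG libraries, and the exceptions were TG DP replicate 3 and TG splenic CD8 replicates 1 and 2. In DN3, WT libraries had 1, 1 and 0 reads and TG libraries 64, 53 and 45 reads, or 2.25, 1.86 and 1.63 CPM. Summed over libraries and scaled by depth, the TG to WT ratio in DN3 was 77.8, with an exact 95% interval of 21.2 to 648 that covers counting error only. On the fitted scale, which depends on the prior count for so low a WT level, the rise in DN3 was 6.06 ± 0.56 (adjusted p = 8.18e-05), called without any one library.

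Total DN cells had the highest group mean of Cdkn2a. WT DN libraries had 4, 0 and 1 reads, and TG DN had 13.4, 6.77 and 5.34 CPM (log2 rise 7.02 ± 0.82, adjusted p = 0.00347), called without any one library. Some markers of other cells moved with genotype in double-negative cells. The summed mast cell markers (Cpa3, Hdc, Ms4a2) were 29.96 to 74.5 CPM in WT and 514 to 859 CPM in TG DN3, with Ms4a2 at 0, and 13.1 to 28.8 CPM in WT and 314 to 1817 CPM in TG DN. Nearly all of the TG sums was Cpa3, at 513 to 859 CPM in TG DN3 and 313 to 1816 CPM in TG DN. The rise is therefore that of Cpa3 and not of the list. The summed progenitor markers (Kit, Cd44, Flt3) were 46.1 to 56.6 CPM in WT and 216 to 363 CPM in TG DN3, and 86.1 to 108 CPM in WT and 153 to 394 CPM in TG DN. Their part in the result was not tested.

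CD4SP had 0, 0 and 2 reads of Cdkn2a in WT and 14.5, 4.93 and 2.75 CPM in TG (7.85 ± 1.19, adjusted p = 0.00958). The summed ratio was 285, with an exact interval of 78.5 to 2360.3. Without the CD4SP library with low Cd4 the rise was 6.92 (adjusted p = 0.0196). The call was lost without WT replicate 1 (7.29) or 2 (7.30).

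CD8SP cells had 0, 0 and 2 reads of Cdkn2a in WT and 2.96, 7.87 and 1.29 CPM in TG, a rise of 6.91 ± 1.17 (adjusted p = 0.0259). Of the 6 fits that left out a library, those without TG replicate 2 or 3 kept this call. It was lost without TG replicate 1 or any WT library (6.36 to 9.61 on the log2 scale). In DP, Cdkn2a did not pass the filter: TG DP had 34, 128 and 0 reads and WT DP 5, 0 and 0. The summed DP ratio was 30.8 (12.9 to 96.1). Without TG DP replicate 3, the library with no read and WT-level Lmo2, Cdkn2a was tested and called at 5.62 (adjusted p = 0.0469). It passed the filter there through the TG libraries, so this call supports nothing by itself. In DN1 the ratio was 4.68 (1.92 to 14.9), from 5 reads in WT and 15, 29 and 29 in TG, and the fitted difference of 2.23 ± 1.85 was not called.

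In each of the 6 TG thymic groups, the library highest in Cdkn2a was also highest in Cdkn1a, but in neither of the splenic groups. In 4 of the 6 it was also highest in Cpa3, a protease gene of mast cells. Only Cdkn1a, Cdkn2a, Cpa3 and Lmo2 were looked up in this way, so the share of all genes with the same top library is unknown. The 4 libraries highest in both Cdkn2a and Cpa3 (TG DN 1, DP 2, CD4SP 1, CD8SP 2) had 13.4, 6.56, 14.5 and 7.87 CPM of Cdkn2a. They had 1816, 179, 1888 and 246 CPM of Cpa3, and all 4 column names end in N. The 3 mast cell markers (Cpa3, Hdc, Ms4a2) summed to 0.459 to 0.713 CPM in WT CD4SP. In TG CD4SP they summed to 3.19 to 1889 CPM, with Cpa3 alone at 2.15 to 1888 CPM and Ms4a2 at 0. Their part in the result was not tested.

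**Figure D4:**
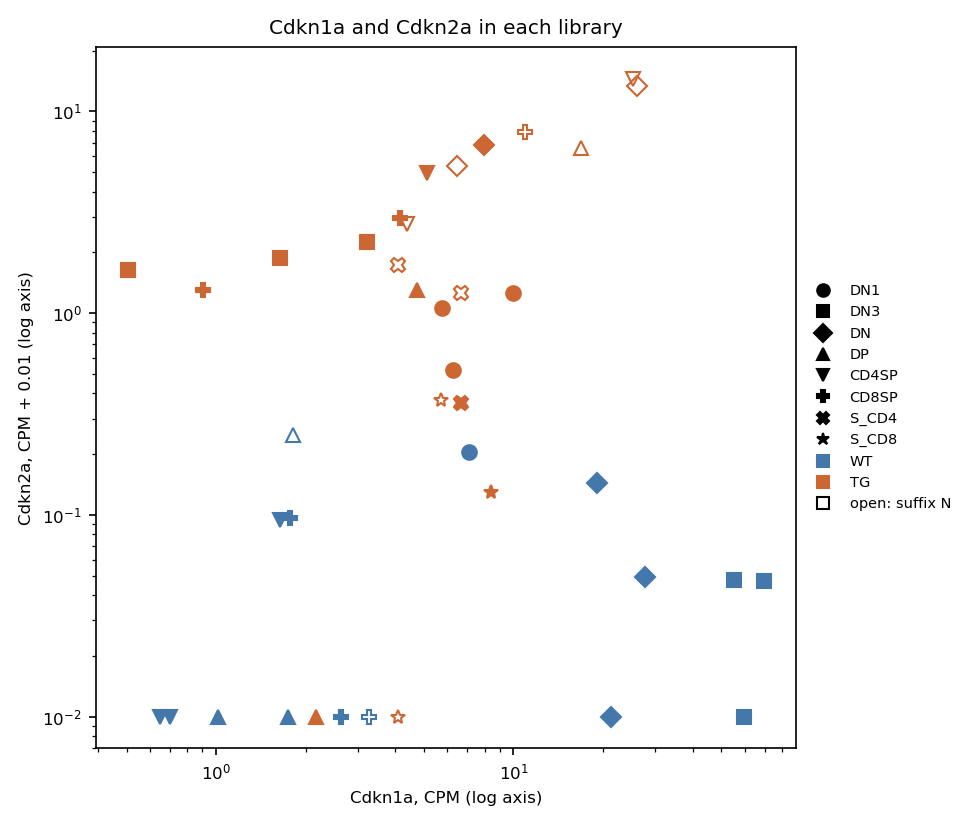
Cdkn2a (CPM plus 0.01) against Cdkn1a (CPM) in each of the 40 libraries, both on log axes. Orange marks are TG and blue marks WT, shapes give the population, and open marks are libraries whose column name ends in N. WT DN3 libraries lie at the lower right (55.03 to 69.5 CPM of Cdkn1a), and TG CD4SP replicate 1 and TG DN replicate 1 lie highest in Cdkn2a (14.5 and 13.4 CPM).

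Cdkn2b (p15), the neighbour of Cdkn2a on chromosome 4, had at most 2.24 CPM in any library. RefSeq places the noncoding gene Gm12610 across it, and whether counting used the strand is not given, so its counts are uncertain. In CD4SP, WT had 3, 0 and 0 reads and TG 19, 28 and 9 reads (0.871, 1.04 and 0.526 CPM), a summed ratio of 21.5 with an exact interval of 6.97 to 107. It was called there (log2 rise 4.21 ± 1.04, adjusted p = 0.0285). The call held without TG replicate 2 or 3, and was lost without TG replicate 1 (4.17) or any WT library (3.67 to 7.24). TG splenic CD4 cells had the highest level, 2.24, 1.98 and 1.49 CPM, above all libraries of the next group, TG DN1. Cdkn2b averaged, in the remaining WT groups, 0.777 CPM in DN1, 0.196 ± 0.103 CPM in DN, 0.0455 ± 0.0481 CPM in DP, 0.0382 ± 0.0662 CPM in CD4SP, 0.0268 ± 0.0234 CPM in CD8SP and 0.0123 ± 0.0213 CPM in DN3. Mean Cdkn2b levels in TG groups not yet given were 0.8400 ± 0.342 CPM in DN1, 0.535 ± 0.2602 CPM in DN, 0.377 ± 0.166 CPM in splenic CD8, 0.313 ± 0.189 CPM in CD8SP, 0.173 ± 0.206 CPM in DP and 0.118 ± 0.0883 CPM in DN3.

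Cdkn2c (p18) restrains the division of lymphocytes. In CD4SP, WT had 11.4, 9.88 and 16.1 CPM and TG had 100.4, 162 and 34.7 CPM, without overlap. The highest of these, TG replicate 2, was the library with Rag1 and Cd8a at the level of DP cells, where Cdkn2c averaged 87.3 CPM in WT and 118 CPM in TG. Without it the rise was 2.44 (adjusted p = 0.0109). The rise of 2.998 ± 0.54 (adjusted p = 0.0134) was kept without any one TG library (2.44 to 3.42) and lost without WT replicate 1 or 2 (2.92 and 2.84). The proliferation marker Mki67 moved with it, at 145 to 184 CPM in WT CD4SP and 757, 981 and 329 CPM in TG CD4SP, and its part was not tested. In total DN (WT 44.8, 45.6 and 40.8 CPM, TG 94.5, 56.3 and 67.3 CPM) the genotypes did not overlap either. The same held in CD8SP (WT 92.99, 67.3 and 80.5 CPM, TG 139.7, 126 and 107 CPM). Those differences, 0.68 ± 0.20 and 0.64 ± 0.17, were not called by edgeR (adjusted p = 0.06503 and 0.0963) and were called by DESeq2 (adjusted p = 0.0229 and 0.0182). With 1 library left out, edgeR called the DN difference in 1 of 6 fits and the CD8SP difference in 0 of 6. In DN, edgeR gave 0.32 with a term for the suffix N (adjusted p = 0.691). Fitting all 40 libraries together gave 0.74 in DN (edgeR adjusted p = 0.134).

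In DP the difference of Cdkn2c was 0.43 ± 0.16 (adjusted p = 0.218), and 0.51 (adjusted p = 0.0884) without TG DP replicate 3. The genotype difference in CD8SP minus that in CD4SP was -2.35 ± 0.59 on the log2 scale, but this interaction was not called (adjusted p = 0.102), where 0.032% of all genes were called (0.008% higher and 0.024% lower). With DESeq2 the term was -2.32 (adjusted p = 0.007004). In that interaction edgeR called 0 of 9 members, an unadjusted p under 0.05 was reached by 1 member, and 1 member was called by DESeq2. In the other WT groups the mean of Cdkn2c was 87.3 ± 10.6 CPM in DP, 33.1 ± 1.28 CPM in DN3 and 18.96 CPM in DN1. Other TG groups had mean Cdkn2c levels of 118 ± 14.95 CPM in DP, 41.3 ± 10.9 CPM in DN3 and 21.7 ± 4.63 CPM in DN1. Ordered by level, Cdkn2c had neighbours without overlap at TG DN and WT DN, WT DN3 and TG DN1, and WT DN1 and TG splenic CD4. WT DN1 is 1 library and has no spread.

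Cdkn2d (p19Ink4d) rose in the double-negative cells. WT DN3 had 22.03, 18.6 and 21.6 CPM and TG DN3 had 31.00, 43.3 and 48.96 CPM, a rise of 1.01 ± 0.18 (adjusted p = 0.00198) that held without any one library. WT DN had 23.6, 20.7 and 20.2 CPM and TG DN had 64.01, 32.2 and 59.3 CPM (1.22 ± 0.26, adjusted p = 0.0239). All TG libraries were above all WT libraries in both. Cpa3 and the summed progenitor markers moved with genotype in these cells, as given for Cdkn2a, and their part was not tested. In DN the call held without TG replicate 1 or 2 and was lost without TG replicate 3 or any WT library (1.13 to 1.29). A term for the suffix N also ended it (0.54, adjusted p = 0.281). In DP (0.19 ± 0.17) and CD8SP (0.16 ± 0.26) the genotypes overlapped, with 95% intervals of -0.28 to 0.65 and -0.57 to 0.90. Without TG DP replicate 3 the DP difference was 0.13 (adjusted p = 0.651). In CD4SP all TG libraries (84.7, 152 and 70.1 CPM) were above all WT libraries (65.5, 61.98 and 56.99 CPM). The highest of these, TG replicate 2, was the library with Rag1 and Cd8a at the level of DP cells. The CD4SP difference of 0.74 ± 0.29 was not called (adjusted p = 0.102) and ran from 0.33 to 0.97 without 1 library. It was called with a term for the suffix N, which was chosen after seeing the data (1.31, adjusted p = 0.00991). Cdkn2d averaged, in the remaining WT groups, 139.7 ± 11.4 CPM in DP, 76.6 ± 13.4 CPM in CD8SP and 55.8 CPM in DN1. Mean Cdkn2d levels in TG groups not yet given were 159 ± 24.3 CPM in DP, 85.7 ± 29.9 CPM in CD8SP, 52.3 ± 3.32 CPM in splenic CD4, 51.1 ± 20.9 CPM in splenic CD8 and 47.9 ± 11.8 CPM in DN1. Gaps without overlap in its order of levels lay between WT CD4SP and WT DN1, which is 1 library and has no spread, and between TG DN3 and WT DN.

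Trp53 encodes p53. WT DN3 had 326, 289 and 327 CPM and TG DN3 had 438, 433 and 399.6 CPM, a rise of 0.45 ± 0.10 (adjusted p = 0.00656) with no overlap, called without any one library. Fitting all 40 libraries together gave the same rise with a larger error (0.45 ± 0.27), which was not called (adjusted p = 0.2596). Total DN gave 0.45 ± 0.19, from 253, 268 and 387 CPM in WT and 405, 392 and 489 CPM in TG, which did not overlap but were not called (adjusted p = 0.152). Without WT DN replicate 3, whose erythroid markers summed to 22185 CPM, it was 0.67 (adjusted p = 0.0493). The DP difference was 0.57, with an interval of -0.28 to 1.42, from 298, 153 and 153 CPM in WT and 318, 363 and 215 CPM in TG, and 0.75 (adjusted p = 0.141) without TG DP replicate 3. In the other WT groups the mean of Trp53 was 308 ± 79.9 CPM in CD4SP, 298 ± 33.7 CPM in CD8SP and 224 CPM in DN1. Other TG groups had mean Trp53 levels of 368 ± 62.1 CPM in CD8SP, 343 ± 83.00 CPM in CD4SP, 316 ± 136 CPM in splenic CD8, 309 ± 7.004 CPM in splenic CD4 and 263 ± 30.3 CPM in DN1. The only neighbours without overlap in the order of Trp53 levels were TG DN1 (lowest library 228 CPM) and WT DN1, which is 1 library and has no spread.

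Mdm2, the antagonist of p53, had 99.8, 103 and 100.4 CPM in WT DN3 and 100.2, 106 and 107 CPM in TG DN3. The ranges overlapped, with a log2 difference of 0.07 and a 95% interval of -0.17 to 0.31. In DP it was 208, 211 and 209.8 CPM in WT and 129, 148 and 178 CPM in TG, every TG library below every WT library, yet not called at -0.46 ± 0.16 (adjusted p = 0.213) or, without TG DP replicate 3, at -0.61 (adjusted p = 0.0571). TG splenic CD4 was lowest with 80.5, 78.3 and 51.4 CPM. Mdm2 averaged, in the remaining WT groups, 142 ± 2.79 CPM in CD4SP, 126 ± 15.7 CPM in CD8SP, 107 CPM in DN1 and 104 ± 6.19 CPM in DN. Mean Mdm2 levels in TG groups not yet given were 131 ± 54.6 CPM in CD4SP, 129 ± 28.6 CPM in CD8SP, 109 ± 6.901 CPM in DN1, 92.4 ± 11.3 CPM in splenic CD8 and 88.3 ± 20.3 CPM in DN. The order of Mdm2 levels had gaps between WT DP and TG DP, and WT CD8SP and TG DN1.

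Many genes of the table, members among them, differed between stages of WT cells. The counts of members called, here and in the next paragraph, stand beside large shares of all genes. They support nothing by themselves. From DN3 to DP, 6 of 7 tested members were called, where 60% of all genes were called (28.6% higher and 31.4% lower). Cdkn1a fell by 5.33 ± 0.25 on the log2 scale (adjusted p = 7.42e-07). Cdkn1b rose by 2.12, Cdkn1c by 3.09, Cdkn2c by 1.39, Cdkn2d by 2.75 and Mdm2 by 1.05, and all 6 were called without any one library. Cdkn1c had 19, 4 and 13 reads in WT DN3 and 90, 86 and 89 reads in WT DP. It passed the filter through WT DP, so its call as higher supports nothing by itself. For Trp53, the difference of -0.63 ± 0.28 was not called, and was called (-1.09) when DP replicate 1, the highest and the WT DP library with the suffix N, was left out.

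From DP to the single-positive stages several inhibitors fell. In WT CD4SP, 5 of 7 members were called, all lower, where 43.9% of all genes were called (23.4% higher and 20.5% lower). They were Cdkn1b (-0.81), Cdkn1c (-1.47), Cdkn2c (-2.76), Cdkn2d (-1.13) and Mdm2 (-0.51), each called without any one library. In WT CD8SP, 4 of 7 were called, all lower, where 37.7% of all genes were called (20.8% higher and 16.9% lower): Cdkn1b (-1.25), Cdkn1c (-1.07), Cdkn2d (-0.85) and Mdm2 (-0.71). The call of Cdkn1c was kept without WT CD8SP replicate 3, a library with 2983 CPM of Rag1 (-1.40), and lost without any of the other 5 (-1.13 to -0.80). That of Mdm2 was lost without WT CD8SP replicate 1 (-0.65). Cdkn2c differed between DP and CD8SP by -0.10, with an interval of -0.58 to 0.37. All 3 WT comparisons share the WT DP libraries.

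TG splenic T cells were set against TG single-positive thymocytes. In CD4 cells 1 of 9 members was called, where 24.5% of all genes were called (12.5% higher and 12% lower). Cdkn2c was lower in the spleen, at 18.6, 18.6 and 12.5 CPM, and fell by 2.59 ± 0.54 (adjusted p = 0.0204). It was called without TG CD4SP replicate 2 (-2.07) or 3 (-3.01), and lost without CD4SP replicate 1 or any splenic library (-2.68 to -2.45). In CD8 cells 3 of 8 were called, all lower, where 37.3% of all genes were called (17.2% higher and 20.1% lower). Of these, Cdkn2a and Cdkn1c had 10 reads or fewer in every splenic CD8 library and passed the filter through TG CD8SP, so that once tested they could only be lower. Cdkn2c fell by 4.08 ± 0.31 (adjusted p = 0.0005703), to 10.5, 6.58 and 5.64 CPM. Cdkn1c fell by 3.91 ± 0.58 (adjusted p = 0.00405), to 0.399, 0.248 and 0.205 CPM. Both were called without any one library, and without splenic CD8 replicate 1, which held the most B-cell transcript, the differences were -4.41 and -4.26.

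Cdkn2a in splenic CD8 cells had 3, 0 and 7 reads and fell by 4.64 ± 1.18 (adjusted p = 0.0239). Without TG CD8SP replicate 1 or 2 that call was lost (-4.83 and -3.63). In splenic CD4 cells Cdkn2a had 1.72, 1.25 and 0.347 CPM, all below TG CD4SP, with a difference of -2.77 that edgeR did not call (adjusted p = 0.0598) and DESeq2 called (adjusted p = 0.00395). Mki67 was 29.9 to 147 CPM in splenic CD4 and 53.8 to 168 CPM in splenic CD8 libraries, against 652 to 1708 CPM in TG CD8SP. Markers of other blood cells were higher in the spleen. Summed erythroid markers were 1070.3 to 58629 CPM in splenic CD4 and 86.00 to 329 CPM in TG CD4SP libraries. Summed myeloid markers were 522 to 3211 CPM in splenic CD4 and 35.8 to 164 CPM in TG CD4SP libraries. Summed B cell markers were 454 to 1822 CPM in splenic CD4 and 19.6 to 56.4 CPM in TG CD4SP libraries. The corresponding ranges in splenic CD8 cells were 162 to 2768 CPM for myeloid and 482 to 3478 CPM for B-cell markers, against 9.76 to 51.9 and 8.400 to 26.1 CPM in TG CD8SP. The part of these markers in the results was not tested.

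Genes around the members were counted in lists chosen by name. Of 30 p53 targets, 28 were tested in DN3, where 7 were higher and 6 lower in TG. Over all genes, 45.7% were called. Their median log2 change was -0.11, against -0.03 over all genes. In the pairs of group means that follow, TG is given first. Zmat3, an RNA-binding p53 target, had 25.4 and 6.602 CPM in DN3, and Apaf1, which activates caspases, had 99.4 and 51.6 CPM. These, with Perp and Trp53inp1, had the smallest adjusted p of the list in DN3, and all 4 were higher. Perp had 1.03 and 0.0244 CPM and passed the filter through TG, so that once tested it could only be higher. In total DN, where 12.4% of all genes were called (7.47% higher and 4.89% lower), 4 of 29 were higher and 0 lower (median 0.09 against -0.01). They were Phlda3, an inhibitor of Akt (23.1 and 4.61 CPM), the cell-death genes Bax (69.9 and 43.3 CPM) and Bbc3 (22.4 and 10.1 CPM), and Perp (5.47 and 0.679 CPM). Phlda3 also rose in CD4SP (23.1 and 2.19 CPM) and CD8SP (11.03 and 3.12 CPM). In CD4SP 4 were higher and 2 lower of 28 (median 0.05 against 0.05), where 25.9% of all genes were called. In CD8SP 1 was higher and 1 lower of 28, where 4.45% of all genes were called.

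Among 18 regulators and relatives of p53, 16 were tested in DN3, with 1 higher and 4 lower (median -0.08), where 45.7% of all genes were called. Ep300, an acetyltransferase that acts with p53, rose (291 and 138 CPM), and Npm1 (904 and 1561 CPM), Rpl5 and Rpl11, whose products bind Mdm2, fell. Mdm4, the partner of Mdm2, was lower in TG total DN (159 and 301 CPM) and TG CD4SP (191 and 489 CPM). In CD4SP, where 25.9% of all genes were called, 2 of 16 were higher and 4 lower. The checkpoint kinase gene Chek1 was among the higher (35.4 and 10.2 CPM). Atm, the kinase that signals DNA breaks, was among the lower (59.4 and 138 CPM).

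The list of CDKs, cyclins, RB proteins and E2F factors, on which the inhibitors act, held 28 genes, all tested. In CD4SP 19 were higher and 1 lower, where 25.9% of all genes were called, with a median of 1.59 against 0.05 over all genes. From WT DP to WT CD4SP the same list had 18 lower and 3 higher (median -1.07), where 43.9% of all genes were called. TG CD4SP replicate 2 had DP levels of Rag1 and Cd8a and replicate 1 low Cd4. In TG CD4SP replicate 3, Rag1 and Cd8a were above every WT CD4SP library. The part of these libraries was not tested. Calls over the whole table in CD4SP ran from 38 to 4329 genes without 1 library, and the list was not counted in those fits. Cdk1, the kinase of mitosis, had 95.6 and 10.2 CPM in CD4SP, and Ccnb1, its cyclin, 97.3 and 10.8 CPM. The counts were 5 higher and 3 lower in DN3, 2 and 4 in total DN, and 1 and 1 in CD8SP, where 45.7%, 12.4% and 4.45% of all genes were called. In DP no gene of the table was called with all libraries, and the lists were not counted without TG DP replicate 3. Of the 3 lower genes in DN3, E2f5 had 6.302 and 12.98 CPM. Cdc25b, a phosphatase that activates CDKs, rose in DN3 (169.9 and 39.3 CPM), total DN (191 and 71.01 CPM), CD4SP (174 and 29.1 CPM) and CD8SP (181 and 69.8 CPM). Ccnd3, a D cyclin of dividing thymocytes, rose in DN3 (838 and 345 CPM) and total DN (1037 and 498 CPM), and Ccnd2 fell in CD8SP (116 and 495 CPM). Between spleen and thymus, 17 of 28 were lower and 1 higher in CD4 cells, where 24.5% of all genes were called (12% lower). In CD8 cells 21 of 28 were lower and 2 higher, where 37.3% of all genes were called (20.1% lower). The medians were -1.77 and -2.40.

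Of 22 genes that turn over or transcribe the inhibitors, 21 were tested in DN3, with 8 higher and 3 lower (median 0.06), where 45.7% of all genes were called. The 4 with the smallest adjusted p in DN3 (Foxo3, Ikzf1, Runx1 and Foxo1) were all higher. Foxo3, a factor that activates Cdkn1b, rose in DN3 (369 and 141 CPM) and total DN (318 and 149 CPM), and Ikzf1 (Ikaros) rose in DN3 (814 and 395 CPM). Dmtf1, an activator of Arf, was lower in total DN (47.1 and 89.2 CPM) and CD4SP (56.3 and 155 CPM). Skp2, which marks p27 for degradation, rose in CD4SP (62.7 and 12.04 CPM), where 5 of 21 were higher and 3 lower, and 25.9% of all genes were called. From WT DN3 to WT DP, Myc, a repressor of several inhibitors, fell by 4.02 on the log2 scale.

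Genes with the most similar course over the 14 group means were looked up among 9835 others, by Pearson correlation of log2(CPM + 0.5), as a description over means that share libraries and scaling. Cdkn2c lay closest to Kif18b, Ccnf and Kif22, at r of 0.993, 0.993 and 0.989. For Cdkn2a the closest were Ephb4, Sobp and Trappc9 (0.935, 0.929 and 0.926), and for Cdkn1a they were Card10, Grasp and Cpne2 (0.865, 0.855 and 0.827). Cdkn2b was closest to Tgm2 (0.917), Cdkn1b to Akirin1 (0.957) and Cdkn1c to Plcl1 (0.943). Cdkn2d was closest to Sash3 (0.952), Trp53 to Bop1 (0.923) and Mdm2 to Mark3 (0.962).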

How the data were processed

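RNA was measured in 40 libraries. The authors deposited read counts and FPKM for 19521 genes in 1 table, and 4 further columns of other sample names were not used. Per the submitters' processing notes the tools and builds include HISAT, DESeq2 and mm10, with no versions, and how FPKM was made or strand was used is, for these files, not given in the sources used here. The 5 deposited LMO2 peak lists, on another build (mm9), were not used here.

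Counts as deposited were tested with edgeR 4.0.16 (quasi-likelihood, robust, TMM scaling, filterByExpr with a minimum count of 10 and a minimum total of 15) in R 4.3.3, within the groups of each of 13 comparisons. Adjusted p-values are Benjamini-Hochberg over all genes tested, at a threshold of 0.05, and the standard error is the log2 fold change divided by the root of F. CPM used TMM over all libraries. Exact ratios are conditional binomial, with 95% intervals. DESeq2 1.42.0, other filters and scalings, a replicate block and leaving out each library were alternatives, and the term for the suffix N was chosen after seeing the data. The scripts were tested on simulated data. All 9 genes are named in every comparison, with up to 4 genes of each list by smallest adjusted p and the 3 most similar genes. The members, lists and tests were chosen with earlier results of these data known. No 2 libraries held identical values, and within groups their correlation was 0.933 to 0.998.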

Additional observations from a re-analysis of the deposited data

Results flagged for a closer look

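The genotype effect on Cdkn1a differed between DP and DN3 cells, by 7.47 ± 1.06 on the log2 scale in a test of the difference itself (edgeR adjusted p = 0.00256). Without TG DP replicate 3, whose Lmo2 was at the WT level, it was 7.92. The same test for Cdkn1b gave -0.91 ± 0.26 (adjusted p = 0.0458), called in 3 of the 12 fits that each left out 1 library. Cdkn1a was lower in every TG library than in every WT library of DN3 (-5.08) and higher in every TG library of CD4SP (3.52). The difference between DN3 and CD4SP was not tested.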

How the results depend on the processing

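No called log2 difference of the members changed sign under the alternatives run, whereas some that were not called did, such as those of Cdkn2d in CD8SP and Cdkn2c between WT CD8SP and DP. The counts that follow cover the 58 member results that were called in any setting or chosen for the text. No value among them changed sign. Of their 337 values under other tools, filters, scalings or fits, 302 kept their side of the threshold, 24 gained a call and 11 lost one. Of their 375 values without 1 library, 316 kept it, 19 gained and 40 lost a call.

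RLE scaling changed no number of members called. The numbers that changed became, with DESeq2, 3 in DN, 1 in DP, 2 in CD8SP, 3 in CD4 cells of the spleen, 4 in the DN3 and DP interaction and 1 in the CD4SP and CD8SP interaction. In one fit of all 40 libraries they became 3 in DN3, 1 in DP, 5 in CD4SP, 4 in WT CD4SP against DP, 3 in WT CD8SP against DP, 4 in CD4 cells of the spleen, 4 in CD8 cells of the spleen, 1 in the DN3 and DP interaction and 1 in the CD4SP and CD8SP interaction. The term for the suffix N, chosen after seeing the data, gave 1 in DN, 7 in WT DP against DN3, 6 in WT CD4SP against DP and 5 in WT CD8SP against DP, and no low-count filter gave 7 in WT DP against DN3. Without 1 library the number ranged over 4 to 5 in DN3, 1 to 3 in DN, 0 to 3 in DP, 0 to 6 in CD4SP, 0 to 1 in CD8SP and was 0 throughout in DN1. It was 6 to 7 for WT DP against DN3, 5 to 6 for WT CD4SP and 2 to 4 for WT CD8SP against DP. It was 0 to 3 and 2 to 3 for splenic CD4 and CD8 cells, and 1 to 4 and 0 to 1 for the interactions. The cause of these changes was not tested beyond the smaller number of libraries.

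Replicate numbers shared by groups did not pair the libraries: the lowest correlation of same-numbered deviations was -0.469 to 0.0962 over the 10 comparisons tested, never with every pair above 0.1. With the replicate block the numbers of members called that changed were 1 in CD4SP, 2 in CD8SP, 7 in WT DP against DN3, 4 in WT CD4SP against DP, 5 in WT CD8SP against DP, 2 in CD4 cells of the spleen, 2 in CD8 cells of the spleen and 3 in the DN3 and DP interaction. In CD4SP it ended the calls of Cdkn1a (3.14, adjusted p = 0.0703), Cdkn2b (4.46, adjusted p = 0.06296) and Cdkn2c (2.80, adjusted p = 0.0543). It also ended that of Cdkn2a between splenic and thymic CD8 cells (-4.46, adjusted p = 0.0854) and that of Mdm2 between WT CD4SP and DP (-0.51, adjusted p = 0.0584).

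By edgeR as reported, genes called over the whole table were 5497 in DN3, 1547 in DN, 0 in DP, 3132 in CD4SP, 520 in CD8SP, 0 in DN1, 3085 in CD4 cells of the spleen, 4546 in CD8 cells of the spleen, 1266 in the DN3 and DP interaction and 4 in the CD4SP and CD8SP interaction. Under alternatives that kept all libraries, counts that differed by over 1.5 times were as follows. In one fit of all 40 libraries the count was 2644 in DN3, 695 in DP, 5723 in CD4SP, 6867 in CD4 cells of the spleen, 7722 in CD8 cells of the spleen, 553 in the DN3 and DP interaction and 500 in the CD4SP and CD8SP interaction. With DESeq2 the count was 2625 in DN, 618 in DP, 1293 in CD8SP, 3 in DN1, 2182 in the DN3 and DP interaction and 673 in the CD4SP and CD8SP interaction. With the suffix term the count was 198 in DN, 1991 in the DN3 and DP interaction and 1 in the CD4SP and CD8SP interaction. With the replicate block the count was 1362 in CD4SP, 798 in CD8SP, 2009 in CD4 cells of the spleen and 0 in the CD4SP and CD8SP interaction. With no low-count filter the count was 32 in the CD4SP and CD8SP interaction. Without 1 library the count ran over 3802 to 6185 in DN3, 179 to 3146 in DN, 0 to 906 in DP, 38 to 4329 in CD4SP, 9 to 724 in CD8SP, 5830 to 8329 in WT DP against DN3, 3747 to 6540 in WT CD4SP against DP, 2163 to 5495 in WT CD8SP against DP, 461 to 3227 in CD4 cells of the spleen, 2626 to 5354 in CD8 cells of the spleen, 352 to 2598 in the DN3 and DP interaction and 0 to 611 in the CD4SP and CD8SP interaction, and was 0 throughout in DN1.

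The order of group levels moved with scaling: by raw column sums, 5 of 14 groups held their rank for Trp53 and 5 for Mdm2. The alternatives planned for LMO2 peaks were not run. Depth limits Cdkn2a and Cdkn2b in WT cells, where a few reads set the ratios.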
